A study of Mus musculus with 4 samples.

Results

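The comparison set imeglimin against its vehicle in cultured mouse islet cells at 3.9 mM glucose, a glucose level near that of fasting. Its members were the 2 libraries with that glucose label, of 4 libraries in the series, and 15921 of the 31792 kept cells. Both libraries came from islets of wild-type male C57BL6J mice aged 8 weeks, kept in culture for 24 h and dispersed with Accutase, an enzyme mix that frees single cells. Cells of one library received 1 mM imeglimin and those of the other received DMSO, the solvent. Droplet-based 10x 3′ sequencing counted unique molecular identifiers (UMIs), each standing for 1 captured transcript. A barcode counted as a cell if it held 1000 UMIs and 500 genes or more and no more than 20% of its UMIs came from mitochondrially encoded genes. Insulin cells, the main class read here, were kept cells with at least 4% of UMIs from Ins1 and Ins2 together, under 2% from Gcg and under 1% each from Sst and Ppy. There were 4525 of them with vehicle and 4853 with imeglimin, together 9378 of the 20279 insulin cells in the series. How many mice were pooled in a library was not given in the sources used here. With 1 library a side there was no replicate check, so no difference was tested. Intervals in the text are 95% counting intervals that cover counting error only, and 1.5-fold serves as a measure of size.

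Imeglimin is an oral glucose-lowering drug of type 2 diabetes, described as acting on mitochondria and as raising insulin secretion in response to glucose. Beta cells couple glucose breakdown to insulin release: ATP closes potassium channels, calcium enters, and insulin granules fuse with the membrane. Proinsulin is folded in the endoplasmic reticulum (ER) by chaperones such as those encoded by Hspa5, Hsp90b1 and Calr, and processed in granules by prohormone convertases. When folding capacity or amino acids run short, the integrated stress response (ISR) lowers protein synthesis and, through the factors ATF4 and CHOP (Ddit3), turns on genes of amino acid supply and redox balance. Misfolded proteins in the cytosol are handled by heat shock chaperones and by ubiquitin and the proteasome.

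The libraries differed in ways that bear on all that follows. They held 96065809 UMIs with vehicle and 91245564 with imeglimin, but the median insulin cell had 12270 and 9552 UMIs, and 3786 and 2843 genes. The median share of Malat1, a nuclear long RNA that stays behind when cytoplasm leaks out, was 1.45% and 2.69% of UMIs in insulin cells, and that of mitochondrially encoded genes was 2.28% and 2.02%. Shallow cells were more common with imeglimin: 235 vehicle and 1044 imeglimin insulin cells had under 5000 UMIs, with median mitochondrial shares of 11.7% and 10.3%, and 181 and 683 had a mitochondrial share of 8% or more. Malat1 was also higher with imeglimin in glucagon cells (2.27% and 4.03%) and endothelial cells (1.07% and 1.89%). Insulin RNA outside insulin cells, a sign of free RNA, had a median of 0.259% of UMIs in endothelial cells with vehicle and 1.13% with imeglimin. The part of these differences in the results below was not tested. The 2 libraries shared 34 barcodes, of which 15 were kept in both. Insulin cells carried the markers of their label: Iapp, the islet amyloid peptide co-secreted with insulin, took a median of 6.15% and 4.67% of UMIs. Markers of other classes summed, in plain CPM (a count of UMIs in every 1000000), to 1133 with vehicle and 997 with imeglimin for delta cells, 715 and 760 for alpha cells, 543 and 294 for duct, 36.4 and 545 for acinar, 29.2 and 52.7 for endothelial cells and 102 and 52.1 for macrophages. Gcg stood at 368 and 414 plain CPM in these cells.

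Among insulin cells, the insulin share of the transcriptome was both higher and far more uneven with imeglimin. Ins1 and Ins2 together made up a median of 9.38% of a cell's UMIs with vehicle and 13.9% with imeglimin. The 10th percentile was 5.24% in both libraries, but the class required 4%, which sets the low end; 471 vehicle and 706 imeglimin cells without other hormones lay just below it, at 2 to 4%. The upper part of the distribution stood apart: the 75th percentile was 12.9% with vehicle and 26.6% with imeglimin, and the 90th 17.2% and 40.8%. The 90th percentile was 3.29 times the 10th with vehicle and 7.79 times with imeglimin, with the same lower bound in both. Cells with at least 16% insulin UMIs were 13.2% of insulin cells with vehicle (12.2 to 14.2) and 45.5% with imeglimin (44.0 to 46.9). Cells with 8 to 16%, the commonest bin with vehicle (49.4%), were 26.2% with imeglimin. Those with 32% or more were 1.35% and 18%. Among deeper cells (5000 UMIs or more, no more than 10% mitochondrial), the share above 16% was 13.7% and 52.8%. Choosing cells by Iapp (at least 1% of UMIs) in place of insulin gave 11.6% and 39.9%. At 11.1 mM glucose the order of the medians was the other way, with 32.9% for vehicle and 27.5% for imeglimin, and the 90th percentile was 2.03 and 2.16 times the 10th. As sums over all insulin cells at 3.9 mM, Ins2 was at 88147 and 215047 CPM, on the scale given below, and Ins1 at 13162 and 28633. The genes are close paralogs, so their sum is more certain than the split. Iapp was nearly level, at 57408 and 58733.

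**Figure D1:**
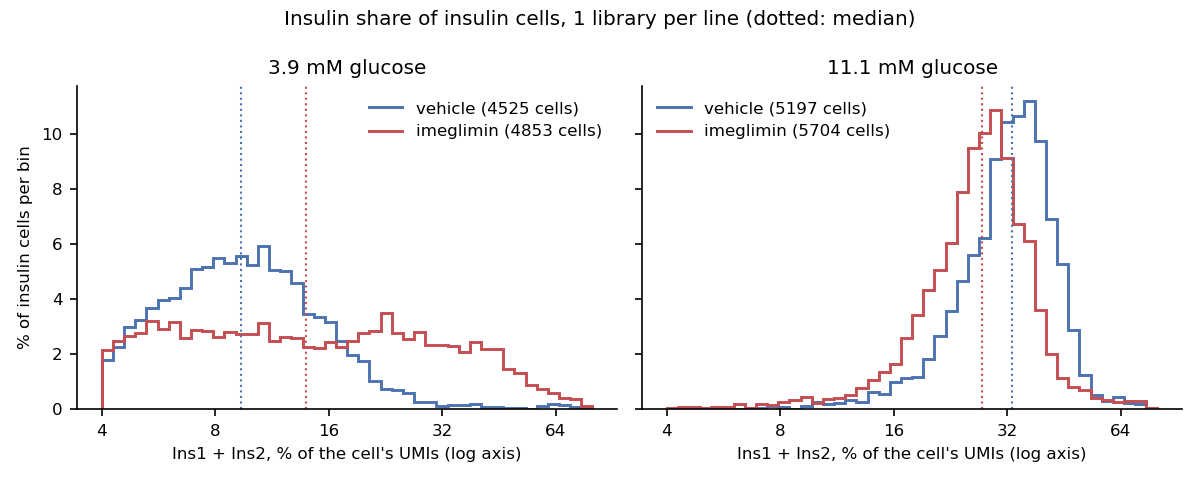
Distribution over insulin cells of the share of UMIs from Ins1 and Ins2 (log axis, %), as the percentage of each library's insulin cells per bin; each line is 1 library and dotted lines mark medians. At 3.9 mM the imeglimin library spreads up to and beyond 32% while the vehicle library centres near its median of 9.38%; at 11.1 mM both are narrow, with medians of 32.9% (vehicle) and 27.5% (imeglimin).

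Across the transcriptome of insulin cells, UMIs were summed over cells and scaled between the 2 libraries by TMM, a trimmed mean that gives less weight to a few abundant genes; values below are these scaled CPM. Of 6296 genes that reached 20 CPM in one library or both, 846 (13.4%) were higher with imeglimin by 1.5-fold or more and 737 (11.7%) lower by as much. At least 2-fold apart were 185 (2.94%) and 249 (3.95%). The scale matters: insulin transcripts took a larger part of the imeglimin library. Under plain CPM every log2 ratio was 0.33 lower, so that the median of all genes was -0.23 in place of 0.10, and the split became 256 higher and 1585 lower. Ratios below are best read against the median of 0.10. Of the 846 and 737 genes, 133 and 287 were also at least 50 CPM in one library and past 1.5-fold under plain CPM, as a mean over cells and after thinning every cell to 3000 UMIs, with gene models and genes over 10 times higher in another class set aside.

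The 7 highest of these 133 were digestive enzyme genes of exocrine acinar cells, which marked few cells. Ctrb1, a chymotrypsinogen, was at 12.2 CPM with vehicle and 261 with imeglimin, and Clps, a lipase cofactor, at 0.571 and 60.6. Between 96.5% and 99.0% of the imeglimin UMIs of these 7 genes lay in 10 cells. Over the whole library, 7 imeglimin insulin cells had over 1% of UMIs from 8 acinar markers and held 97.5% of those markers' UMIs. Without cells that had over 1% from markers of another class, Ctrb1 was at a log2 ratio of -1.28, Prss2 at -1.27, Try4 at -1.14, Cela3b at -0.99, Cela1 at -0.77 and Pnlip at -0.70, against 4.42, 3.43, 4.09, 4.31, 4.0 and 4.80 with them. Clps was then at 0.36.

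Next highest was Jun, an immediate early subunit of the AP-1 factor, at 36.5 CPM with vehicle and 268 with imeglimin (log2 ratio 2.88, 2.82 to 2.94). Cells with a Jun UMI, after thinning to 3000 UMIs, were 10.3% and 39.0%. In endothelial cells, which also transcribe it, the share after the same thinning was 60.2% and 56.0%, with 392 and 455 plain CPM. Glucagon cells had a share of 30.8% and 43.3%. Thinning made the depth of these cells equal. Before it, median depths were 5772 and 3844 UMIs in endothelial and 12270 and 9552 in insulin cells. Nfkbia, the inhibitor that NF-kappaB induces against itself, was at 90.6 and 418 CPM (2.20). The difference spread over many cells, as 17.8% and 37.9% of thinned cells had a UMI, while in endothelial cells the share was 75% and 77.5%. Tfrc, the transferrin receptor, was at 36.8 and 118 CPM (1.68), and Retreg1, a receptor for the autophagy of ER sheets, at 48.2 and 148 (1.62). Snrnp48, a subunit of the minor spliceosome, was at 61.6 and 222 (1.85), and Hmgb2, a chromatin protein, at 56.5 and 184 (1.71). Aldh5a1, which completes the breakdown of GABA, stood at 30.9 and 98.0 (1.66) and Tnfrsf12a, the TWEAK receptor, at 18.3 and 55.2 (1.59). All these were higher in the imeglimin library in both the lowest and the highest quartile of cells by insulin share.

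**Figure D2:**
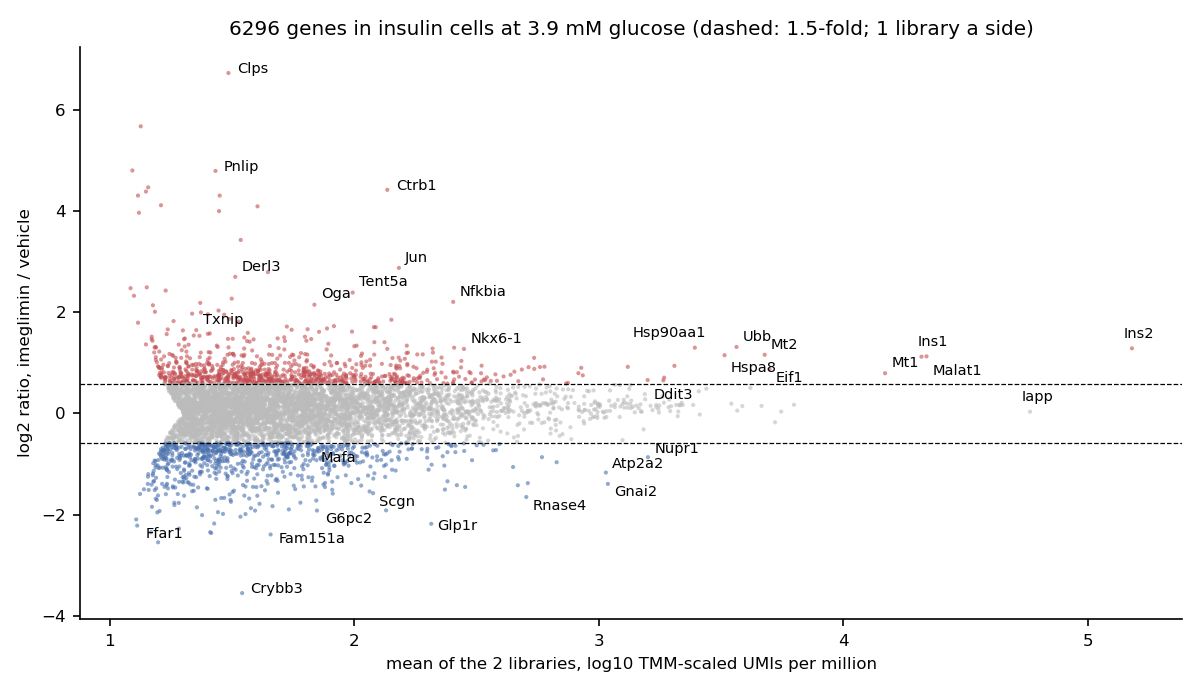
Each point is 1 of 6296 genes in insulin cells at 3.9 mM glucose, with the mean of the 2 libraries (log10 TMM-scaled CPM) against the log2 ratio of imeglimin to vehicle; dashed lines mark 1.5-fold, red points lie above and blue points below. Ins2, Ubb, Mt2 and Malat1 are abundant genes on the high side, Gnai2 and Atp2a2 abundant genes on the low side, and Clps, Pnlip and Ctrb1 are the acinar genes that a few cells carried.

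Genes of protein quality control in the cytosol were higher as a group. Of 24 heat shock chaperone genes, 11 were higher by 1.5-fold or more and 0 lower, with a median log2 ratio of 0.54. Hspa8, the constitutive Hsp70, was at 2032 CPM with vehicle and 4510 with imeglimin (1.15, 1.14 to 1.16). Hsp90aa1, the inducible cytosolic Hsp90, was at 1428 and 3517 (1.30), and Dnajb1, the J-domain partner of Hsp70, at 57.5 and 188 (1.70). Hsf1, the factor that drives these genes, was nearly level at 19.2 and 20.3. Of 7 ubiquitin genes, 3 were past 1.5-fold on the high side and 0 on the low side, among them Ubb, a polyubiquitin gene, at 2100 and 5221 CPM (1.31), and the conjugating enzyme gene Ube2d3 at 367 and 571 (0.64). Of 31 proteasome genes, 9 were higher and 0 lower, with a median of 0.37. The base receptor subunit gene Psmd4 was at 126 and 234 CPM (0.89) and the core subunit gene Psmb6 at 183 and 325 (0.82). Under plain CPM the medians of the heat shock, ubiquitin and proteasome lists were 0.22, 0.01 and 0.05, so the last pair then stood near 0 although still above the median of all genes (-0.23).

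Cell by cell, the summed shares of these lists were higher as well. The heat shock list took a median of 107 of every 10000 UMIs outside insulin in vehicle cells and 175 in imeglimin cells, and 67.3% of imeglimin cells lay above the 90th percentile of vehicle cells. In 86.9% of all pairs of 1 imeglimin and 1 vehicle cell, the imeglimin cell was the higher, where 50% would mean level distributions. For the ubiquitin list the medians were 45.6 and 81.3, and the pair share was 89.7%. Proteasome genes gave 80.3% and translation initiation and elongation genes 86.6%. In such sums abundant members weigh most: Ubb alone gave 2353 and 4660 of the ubiquitin list's 4166 and 6654 plain CPM. Of 31 translation genes only 4 were higher by 1.5-fold or more and 0 lower (median 0.23), beside 13.4% higher among all genes. Among single genes of at least 200 CPM, after thinning, the highest pair shares were those of Ubb (80.8%), the zinc-binding metallothionein Mt2 (78.9%), the initiation factor Eif1 (77.8%) and Hspa8 (77.6%). Mt2 was at 2952 and 6593 CPM and Mt1 at 10849 and 18811, while the other 7 genes of the metallothionein and zinc list included the zinc exporter Slc30a1 at 31.9 and 55.3 and the importer-family gene Slc39a7 at 64.6 and 43.0.

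Immediate early and signalling genes were also higher. Of 11 immediate early and CREB target genes, 9 were past 1.5-fold on the high side and 0 on the low side (median 1.17), though 4 of the 11 were over 10 times higher in another class. The stable AP-1 gene Jund was at 592 CPM with vehicle and 1105 with imeglimin, and Irs2, the insulin receptor substrate that CREB induces in beta cells, at 17.7 and 43.6. Of 21 listed genes that feed back on MAP kinase signalling, 10 reached 20 CPM in either library. Of these, 7 were higher and 2 lower (median 1.48), a count that the limit itself bears on. Dusp4 and Spry2 reached it only with imeglimin, and Rgs4 and Rasgef1b only with vehicle. The phosphatase gene Dusp4 was at 8.46 and 38.5 CPM (2.19) and Spry2 at 14.9 and 52.4 (1.82), but the G protein regulator Rgs4 at 53.7 and 17.4 (-1.63) and the exchange factor gene Rasgef1b at 38.3 and 9.49 (-2.01). NF-kappaB genes had 5 of 10 higher (median 0.66), with Nfkbiz at 22.7 and 53.8 CPM, and Sod2, a mitochondrial target of that pathway, at 212 and 192. Of 20 genes of p53 and growth arrest, 11 were higher and 0 lower (median 0.66). Cdkn1a, the p21 cell cycle inhibitor, was at 180 and 369 CPM (1.04), Gadd45a at 45.4 and 109 (1.26), and Bbc3, the pro-death PUMA, at 15.9 and 39.5 (1.31). Interferon response genes had 8 of 11 higher (median 0.91), with Rsad2 at 11.2 and 77.6 CPM and Ifit3 at 16.1 and 44.8. Both reached 20 CPM only with imeglimin, and the 11 were those of 25 listed genes that passed the limit. Rsad2, Ifit3 and Cxcl10 stood more than 10 times higher in another class. The interferon list differed mainly in the upper tail of cells: per 10000 UMIs outside insulin its cell median was 3.24 with vehicle and 3.86 with imeglimin and its 90th percentile 7.96 and 13.6, with a pair share of 56.1%. In the lowest quartile of cells by insulin share the interferon median was 1.19 and in the highest 0.57, while for immediate early genes it was 0.61 and 1.45.

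Lower were genes of stimulus-secretion coupling. None of 20 mature beta cell genes was at least 1.5-fold higher and 10 were lower (median -0.63). Glp1r, the receptor for the incretin GLP-1, was at 339 CPM with vehicle and 74.6 with imeglimin (-2.18, -2.24 to -2.13), and 65.0% and 17.8% of thinned cells had a UMI. In endothelial cells the share was 3.91% and 1.38%. Ffar1, the fatty acid receptor GPR40, was at 21.3 and 4.58 CPM (-2.22), and Sstr3, a somatostatin receptor, at 47.1 and 22.9 (-1.04). Of 15 ion channel genes 10 were lower and 0 higher (median -0.84). Both subunits of the ATP-sensitive potassium channel were among them, Kcnj11 at 38.2 and 19.8 CPM (-0.95) and Abcc8 at 193 and 114 (-0.76), as was the calcium channel subunit Cacna2d1 at 120 and 61.0 (-0.98). Cacna1c, a pore subunit of the L-type calcium channel, was at 26.0 and 27.8. Of 21 genes of granule docking and fusion, 9 were lower and 0 higher (median -0.35), with Cplx2, a complexin that clamps fusion, at 91.1 and 33.4 (-1.44). The calcium sensor gene Syt7 was at 177 and 160.

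Transcripts of calcium handling and glucose breakdown genes were lower as well. Of 13 ER calcium genes 5 were lower and 0 higher (median -0.27). The calcium pump SERCA2, Atp2a2, was at 1481 CPM with vehicle and 658 with imeglimin (-1.17, -1.19 to -1.15), and the imeglimin cell was the higher in 16.4% of thinned cell pairs. Gnai2, an inhibitory G protein subunit, had the lowest pair share of any gene of at least 200 CPM, 11.5%, at 1580 and 601 CPM (-1.39). Camk2n1, an inhibitor of the calcium-dependent kinase CaMKII (741 and 285), had a pair share of 19.6% and the palmitoyltransferase gene Zdhhc2 (680 and 254) of 19.7%. Of 11 glycolysis enzyme genes 7 were lower and 0 higher (median -0.81), from Aldoa at 604 and 289 CPM (-1.06) and Eno1 at 111 and 54.4 (-1.03) to Gapdh at 524 and 377 (-0.48), which stayed inside 1.5-fold. G6pc2, which reverses the glucokinase step, was at 111 and 29.4 (-1.92), the glucose transporter gene Slc2a2 at 46.1 and 36.8 (-0.33). Acly, which makes acetyl-CoA for lipid synthesis, was at 383 and 143 (-1.42), whereas the elongase gene Elovl7 was at 12.1 and 46.8 (1.95).

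Transcription factors of the beta cell parted. Of 15 endocrine factors 7 were lower and 1 was higher (median -0.45). Mafa was at 88.2 CPM with vehicle and 49.6 with imeglimin (-0.83), Pdx1 at 45.4 and 29.7 (-0.61), Pax6 at 142 and 83.2 (-0.77) and Mlxipl, the gene of ChREBP, at 82.6 and 30.7 (-1.43). Nkx6-1, a factor that keeps beta cell identity, went the other way at 165 and 398 CPM (1.27, 1.24 to 1.31). Its level was 165 to 168 in all 4 quartiles of vehicle cells by insulin share, and 270, 326, 424 and 615 in those of imeglimin cells, so the lowest imeglimin quartile was above the highest vehicle quartile. Of 21 genes of insulin and IGF1 receptor signalling, 6 were lower, with Igf1r at 314 and 154 (-1.03) and the kinase gene Akt2 at 71.7 and 34.5 (-1.06), and 2 were higher, Irs2 and the mTOR activator Rheb (190 and 357).

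Many lists kept to the middle. The medians of nuclear genes for complex I (36 genes) and for complexes III, IV and V (34 genes) were 0.10 and 0.08, that of the TCA cycle 0.06 and that of 72 cytosolic ribosomal proteins 0.12, all close to the median of all genes, 0.10; under plain CPM they were -0.23, -0.25, -0.27 and -0.20, again close to that of all genes. The ISR list had a median of 0.13 with 5 of 17 members higher and 4 lower, and -0.20 under plain CPM. Ddit3 was at 1230 and 1942 CPM (0.66), Atf4 at 267 and 342 (0.36) and Trib3, a target of both, at 133 and 128 (-0.06, -0.10 to -0.01). On the low side were Nupr1, a stress-induced chromatin regulator (2054 and 1127, -0.87), and Atf5 (316 and 203, -0.64). Splicing factors had 11 of 38 higher and 6 lower (median 0.16, and -0.17 under plain CPM): Tra2b was at 93.0 and 235 (1.34), the cold-inducible Cirbp at 95.4 and 39.6 (-1.27) and Sfpq at 46.1 and 24.1 (-0.94). Host genes of small nucleolar RNAs, whose spliced transcripts are normally degraded as they are translated, had 6 of 14 higher and 0 lower (median 0.36), with Snhg15 at 38.4 and 127 (1.73) and Snhg1 at 398 and 752 (0.92).

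**Figure D3:**
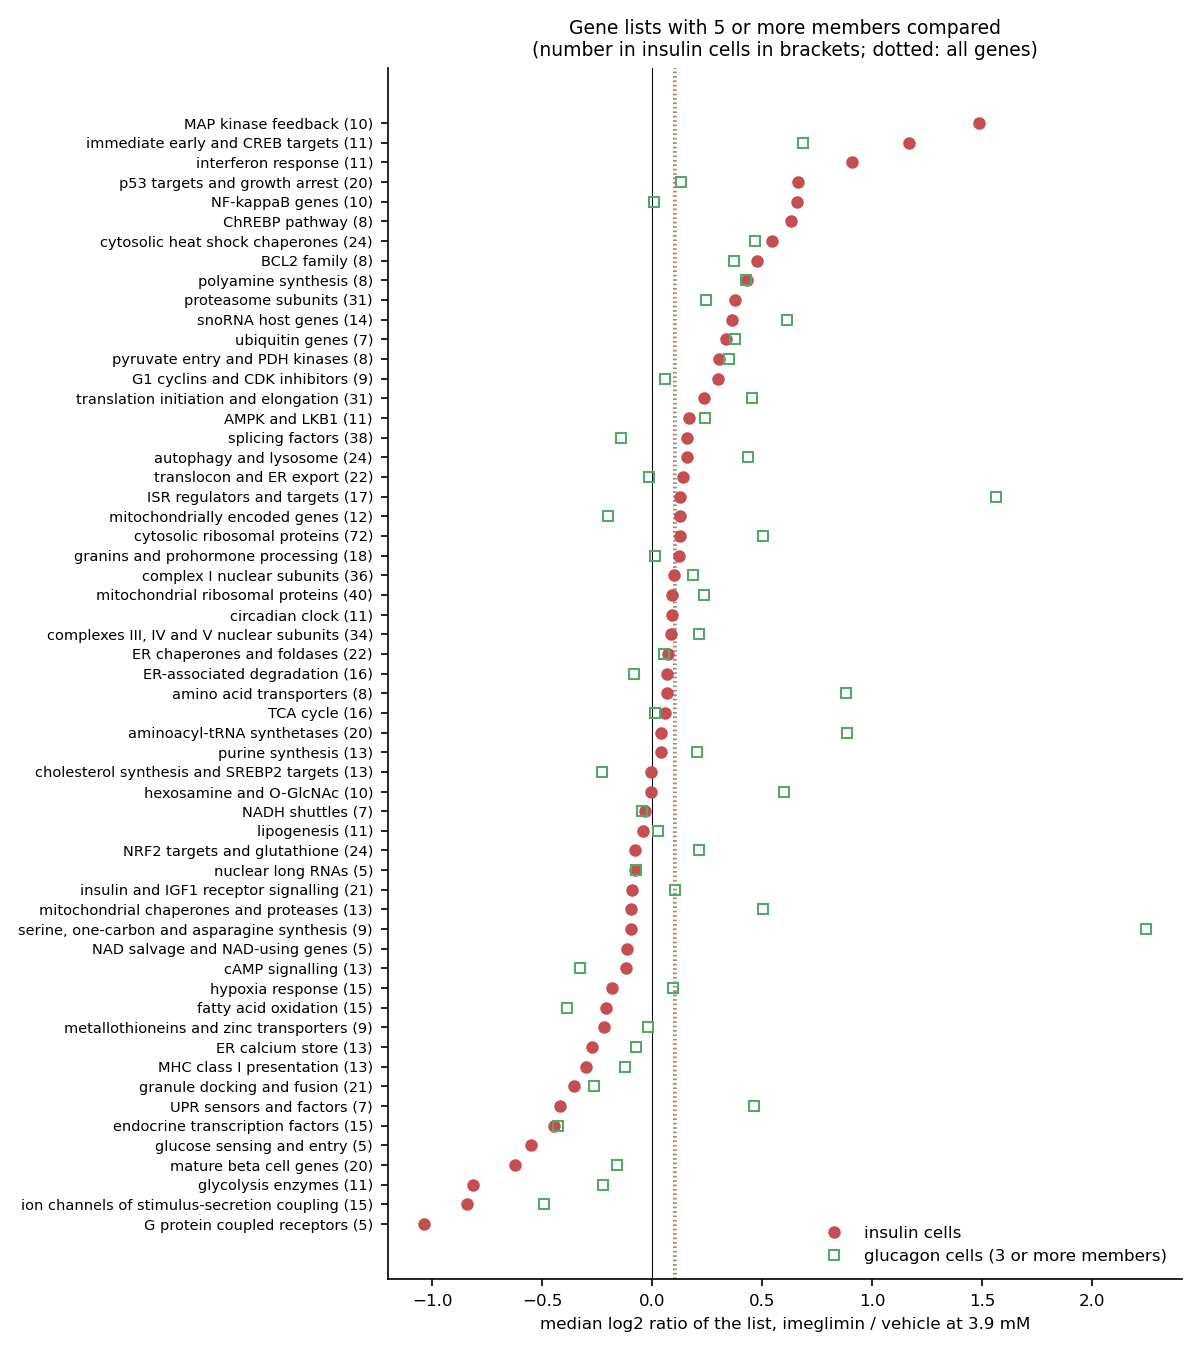
Median log2 ratio of imeglimin to vehicle at 3.9 mM for each gene list with at least 5 members compared in insulin cells (filled circles) and, where at least 3 members were compared, in glucagon cells (open squares); the number in brackets counts members in insulin cells and dotted lines mark the medians of all genes, 0.10 and 0.11. MAP kinase feedback, immediate early and interferon genes lie highest and ion channels and glycolysis low in insulin cells; ISR, serine and aminoacyl-tRNA synthetase genes stand high in glucagon cells.

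The uneven insulin share went with a second pattern. Insulin cells of each library were split into 4 quartiles of equal size by their own insulin share, which used insulin UMIs only; the quartiles had median shares of 5.47%, 8.01%, 10.9% and 16.2% with vehicle and 5.51%, 10.1%, 19.8% and 38.3% with imeglimin. Comparing the highest with the lowest quartile inside a library, 22 genes (0.349%) were higher by 1.5-fold or more and 7 (0.111%) lower with vehicle, against 1039 (16.5%) and 570 (9.05%) with imeglimin. The spans differ in width, so cells with 16 to 32% were also set against cells with 4 to 8% in each library: 19 (0.302%) and 11 (0.175%) genes with vehicle, 311 (4.94%) and 220 (3.49%) with imeglimin. At 11.1 mM the quartiles gave 120 (1.91%) and 110 (1.75%) with vehicle and 121 (1.92%) and 52 (0.826%) with imeglimin. Depth and quality also moved along the imeglimin quartiles: in the lowest, 789 of 1213 cells reached 3000 UMIs, and in the highest 1198 of 1214. The median of all UMIs went from 8219 to 11153, that of UMIs outside insulin from 7796 to 6389, the mitochondrial share from 2.80% to 1.57% and Malat1 from 3.77% to 1.72%. With vehicle 1050 of 1131 and 1114 of 1132 cells reached 3000 UMIs, and Malat1 was at 1.62% and 1.28%. Their part in the pattern was not tested. The ER chaperone median given next was 1.24 over all insulin cells, 1.22 in the deeper cells and 1.26 in cells chosen by Iapp.

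Genes of the secretory pathway were among those with the widest quartiles. Of 22 ER chaperone and foldase genes, 18 were at least 1.5-fold higher in the highest imeglimin quartile than in the lowest and 1 lower (median 1.24), against 0 and 0 with vehicle (0.12); the median of all genes was 0.15 and 0.03. For granins and prohormone processing the medians were 1.36 with imeglimin and 0.28 with vehicle, for the translocon and ER export 0.84 and 0.11. The ChREBP list (1.28 and 0.17, 4 of 8 higher) and the MAP kinase feedback list (1.01 and 0.14, 6 of 10 higher and 2 lower) had medians in the same range. Over the matched span of 16 to 32% against 4 to 8%, the chaperone median was 0.71 and 0.11, and that of immediate early genes 0.66 and 0.16. With 32% or more set against 4 to 8%, the vehicle medians were larger, though from 61 vehicle and 872 imeglimin cells in the upper bin. They were 1.32 with imeglimin and 0.73 with vehicle for chaperones, 1.47 and 0.85 for granins, and 0.78 and 0.71 for immediate early genes. The ChREBP list had 1.42 and 0.26, and all genes 0.11 and -0.06. Calr, the lectin chaperone calreticulin, was at 792, 778, 833 and 851 CPM across the vehicle quartiles and at 567, 771, 1098 and 2180 across the imeglimin quartiles. The lowest imeglimin quartile was thus below every vehicle quartile and the highest was above them all. Slc30a8, which loads zinc into insulin granules, showed the same order, with 258 to 294 CPM with vehicle and 123, 153, 234 and 459 with imeglimin. Sdf2l1, part of an ER chaperone complex, went from 165 to 813 with imeglimin, against 191 to 266. Trpm5, a calcium-activated channel of beta cells, had an imeglimin to vehicle log2 ratio of -2.72 in the lowest quartile and -0.01 in the highest.

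For some lists the library ratios above blended quartiles whose ratios differed in sign. The ER chaperone median of imeglimin against vehicle was 0.07 over all insulin cells (-0.26 under plain CPM). Between the lowest quartiles it was -0.38 and between the highest 0.75, and for granins it was -0.40 and 0.70. Each library had its own cut points, so the highest quartiles had unlike insulin shares (medians of 16.2% with vehicle and 38.3% with imeglimin). In bins of 4 to 8%, 8 to 16%, 16 to 32% and 32% or more insulin, the chaperone medians were -0.39, -0.16, 0.17 and 0.12. Those of granins were -0.40, -0.23, 0.20 and 0.19, and those of all genes 0.03, 0.04, 0.16 and 0.20. At matched share the upper bins thus lay near all genes. Between the lowest and between the highest quartiles, the heat shock medians were closer (0.46 and 0.69), as were those of glycolysis (-0.68 and -0.88). Hspa8 was at 2008 to 2108 CPM across the vehicle quartiles and at 4118 to 4981 across those of imeglimin. Atp2a2 was at 650 to 684 in the imeglimin quartiles and 1407 to 1572 in those of vehicle. Gnai2 and Nupr1 went down along the imeglimin quartiles, from 729 to 499 CPM and from 1433 to 500, where vehicle had 1594 and 1571, and 2015 and 1951, in its lowest and highest. Leaving out Ins1 and Ins2, 844 genes were higher over all insulin cells, of which 387 were so in each of the bins of 4 to 8%, 8 to 16% and 16 to 32% insulin, and of the 737 lower genes 468.

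**Figure D4:**
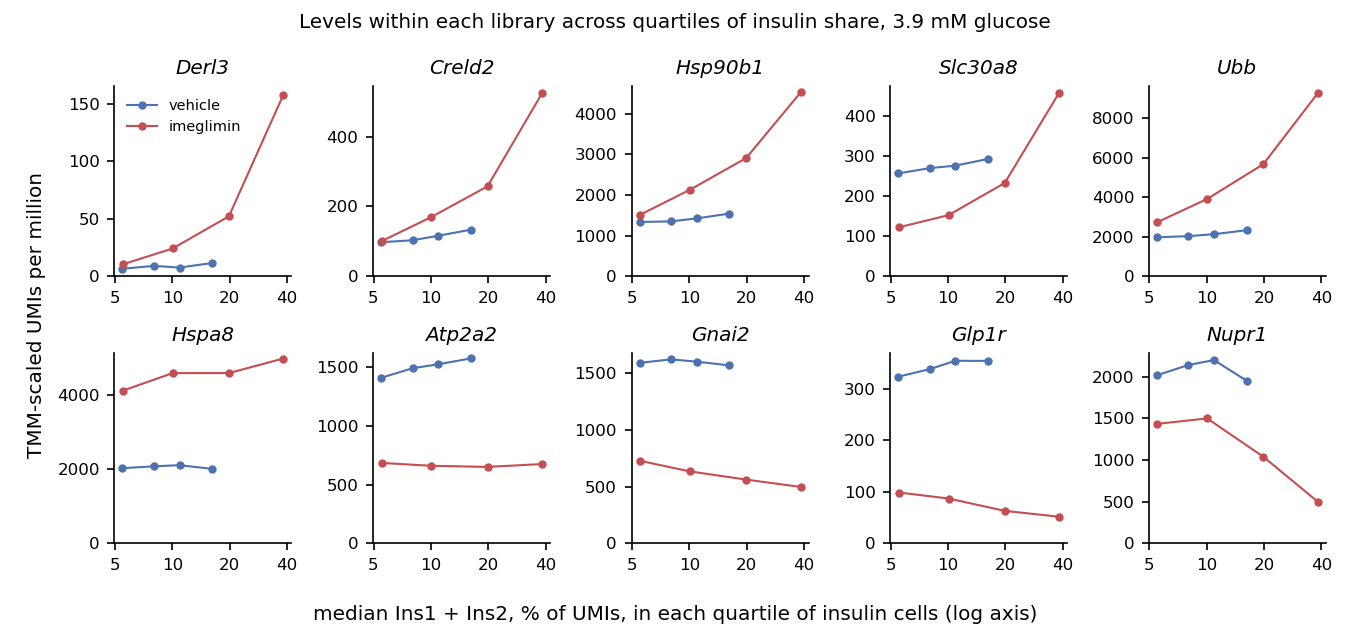
Levels of 10 genes (TMM-scaled CPM, linear axes from 0) in the 4 quartiles of insulin cells, placed at each quartile's median insulin share (log axis, %), in the vehicle (blue) and imeglimin (red) library at 3.9 mM; each point is the sum over 1 quartile of 1 library. Derl3, Creld2, Hsp90b1 and Slc30a8 climb steeply with insulin share in the imeglimin library, Hspa8 and Atp2a2 are nearly flat at different levels, and Nupr1 goes from 1433 to 500 in the imeglimin library.

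Promoters of genes in this pattern were read for the ER stress element, the sequence bound by ATF6 with NF-Y, because it marks ER chaperone genes. RefSeq promoters on GRCm38.p6 were cut to the 250 bases before the annotated start and searched on both strands for CCAAT and CCACG with 9 bases between them. Of 32851 such windows 37 (0.113%) held it, as did those of 10 of the 5097 genes compared here that had a promoter in the table. Of these 10, 7 were among the 18 ER chaperone genes with a promoter: Calr, Canx, Creld2, Dnajc3, Hsp90b1, Hspa5 and Pdia6. The others were Derl3, of ER-associated degradation, the splicing gene Hnrnpa3 and Xlr3a. Between the highest and lowest quartile 8 of the 10 were at least 1.5-fold higher with imeglimin and 1 with vehicle, with medians of 1.495 and 0.11. Of all genes compared, 16.5% and 0.349% were. The chaperone list, with 18 of its 22 genes higher in this contrast with imeglimin, holds 7 of the 10. The count is therefore not separate evidence on the element. A match describes letters and is not shown to be a bound site. The windows below belong to 3 genes of the set that were over 1.5-fold apart between the quartiles with imeglimin, and capitals mark the element, on either strand.
Creld2 (chr15:88819396-88819645, + strand): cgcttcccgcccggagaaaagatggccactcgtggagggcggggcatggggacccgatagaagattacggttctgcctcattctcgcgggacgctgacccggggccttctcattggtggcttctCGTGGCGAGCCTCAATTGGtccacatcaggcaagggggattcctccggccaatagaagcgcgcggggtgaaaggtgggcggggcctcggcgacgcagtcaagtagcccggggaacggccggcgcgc
Derl3 (chr10:75893148-75893397, + strand): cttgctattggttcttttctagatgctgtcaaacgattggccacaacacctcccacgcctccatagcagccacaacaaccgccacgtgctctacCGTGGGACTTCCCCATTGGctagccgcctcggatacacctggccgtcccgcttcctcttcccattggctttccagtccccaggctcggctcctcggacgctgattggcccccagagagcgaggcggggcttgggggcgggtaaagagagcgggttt
Hsp90b1 (chr10:86705445-86705694, - strand): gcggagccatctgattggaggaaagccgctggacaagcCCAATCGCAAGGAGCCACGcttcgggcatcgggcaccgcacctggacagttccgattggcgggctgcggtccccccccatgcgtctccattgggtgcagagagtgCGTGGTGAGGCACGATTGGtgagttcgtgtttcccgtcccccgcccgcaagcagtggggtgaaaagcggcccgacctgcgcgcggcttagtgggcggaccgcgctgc
Creld2, an ER foldase, holds 1 element and was at 97.7, 103, 116 and 134 CPM across the vehicle quartiles and 101, 170, 258 and 523 across those of imeglimin. Derl3, a channel component that moves misfolded proteins out of the ER, holds 1 element, which overlaps 2 matches of other motifs searched. It was at 6.64, 9.15, 7.68 and 11.6 CPM with vehicle and 10.6, 24.3, 52.2 and 158 with imeglimin. Hsp90b1, the ER Hsp90, holds 2 elements and was at 1335, 1352, 1425 and 1542 CPM with vehicle and 1516, 2128, 2905 and 4516 with imeglimin. In all 3 genes the imeglimin to vehicle ratio was larger between the highest quartiles (log2 3.76 for Derl3, 1.97 for Creld2 and 1.55 for Hsp90b1) than between the lowest (0.68, 0.05 and 0.19). The 3 were shown because their imeglimin quartiles lay apart, and their vehicle quartiles lay closer. The order of these ratios follows from that and is not a separate result. Sdf2l1, which also went up along the imeglimin quartiles, holds no match in its window. The heat shock element (GAA, TTC and GAA, each 2 bases apart) was in 2 of 27 windows of heat shock genes (7.41%), against 0.466% of all windows. Those 2 windows belong to 1 of the 19 heat shock genes with a promoter. Hspa8 and Hsp90aa1 had no window among those read, and the windows of Dnajb1 held no match.

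Glucagon cells, chosen by at least 4% of UMIs from Gcg with under 4% from insulin, had higher ISR genes with imeglimin. There were 629 with vehicle and 1094 with imeglimin, with medians of 7837 and 7167 UMIs. Of 3341 genes that reached 50 CPM on either side, 392 (11.7%) were higher by 1.5-fold or more and 217 (6.5%) lower, and the median of all was 0.11. Of 15 ISR genes compared, 13 were higher and 0 lower (median 1.56). A gene could enter through 1 library alone, which bears on this count. With vehicle Chac1, Gdf15, Trib3, Vldlr, Eif4ebp1, Ppp1r15a and Ppp1r15b were under 50 CPM. Chac1, which degrades glutathione, was at 6.46 CPM with vehicle and 72.3 with imeglimin (3.48, 3.04 to 3.96), and Gdf15, a secreted stress hormone, at 10.7 and 80.2 (2.90). Ddit3 was at 171 and 587 (1.78), Atf4 at 95.6 and 283 (1.56), Atf5 at 56.0 and 296 (2.40) and Trib3 at 18.5 and 78.2 (2.08). Sesn2, a sensor of leucine, was near level at 66.3 and 70.6, and Nupr1 was at 274 and 183 (-0.58). All 3 genes compared of serine, one-carbon and asparagine synthesis were also higher, of which Psph reached 50 CPM only with imeglimin. Of members not compared, Mthfd1 was at 48.8 and 31.6 plain CPM and Aldh18a1 at 24.3 and 22.8. Phgdh was at 7.27 and 44.8, Psat1 at 8.69 and 39.3, Aldh1l2 at 7.43 and 30.4 and Pycr1 at 7.27 and 13.5. Psph, of serine synthesis, was at 17.6 and 87.8 CPM (2.32), Mthfd2, of mitochondrial one-carbon metabolism, at 61.3 and 290 (2.24) and Asns, asparagine synthetase, at 61.7 and 211 (1.77). Of 12 aminoacyl-tRNA synthetase genes 7 were higher and 0 lower (median 0.88), with Eprs at 307 and 646 (1.07). Of 7 amino acid transporter genes 4 were higher and 1 lower (median 0.88): Slc38a2 was at 69.8 and 164 (1.23), whereas Slc7a2, an importer of arginine and lysine and the most abundant of the 7 with vehicle, was at 511 and 239 (-1.09).

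The same ISR genes had other ratios in insulin cells of the same libraries, and the difference between the classes was not tested. Atf5 was at -0.64 in insulin cells and 2.40 in glucagon cells, Chac1 at 0.13 and 3.48, Trib3 at -0.06 and 2.08, and Psph at -0.10 and 2.32. Summed over the ISR list, plain CPM in insulin cells was 5907 with vehicle and 4737 with imeglimin, in glucagon cells 1172 and 2448, in endothelial cells 2282 and 3398 and in macrophages 1509 and 2656. On the TMM scale the sum in insulin cells was level, at 5270 and 5306, and 1 gene, Nupr1, went from 2301 to 1006 plain CPM. With imeglimin the plain CPM of Atf5 was 275 in glucagon, 300.1 in endothelial and 181 in insulin cells, and that of Chac1 was 67.2, 76.3 and 53.2. Others were higher in insulin cells: with imeglimin Ddit3 was at 546 in glucagon and 1734 in insulin cells, Trib3 at 72.7 and 114, Mthfd2 at 270 and 455 and Asns at 196 and 299. Insulin RNA in glucagon cells themselves had a median of 0.269% of UMIs with vehicle and 0.71% with imeglimin. Summed over these cells, as the ratios are, Ins2 was at 6162 and 8176 plain CPM and Ins1 at 854 and 813. The part of such RNA in these ratios was not tested. After thinning, 1.5% of vehicle and 17.0% of imeglimin glucagon cells had a Chac1 UMI, against 7.81% and 17.9% of endothelial cells. For Mt1, at 1997 and 7125 CPM in glucagon cells (1.83), insulin cells had the higher level in both libraries (10849 and 18811), and endothelial cells had 604 and 2376 in plain CPM. Hspa8 was at 833 and 1583 (0.93) in glucagon cells, and Ubb, at 1729 and 1818 (0.07), was nearly level there against 1.31 in insulin cells.

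**Figure D5:**
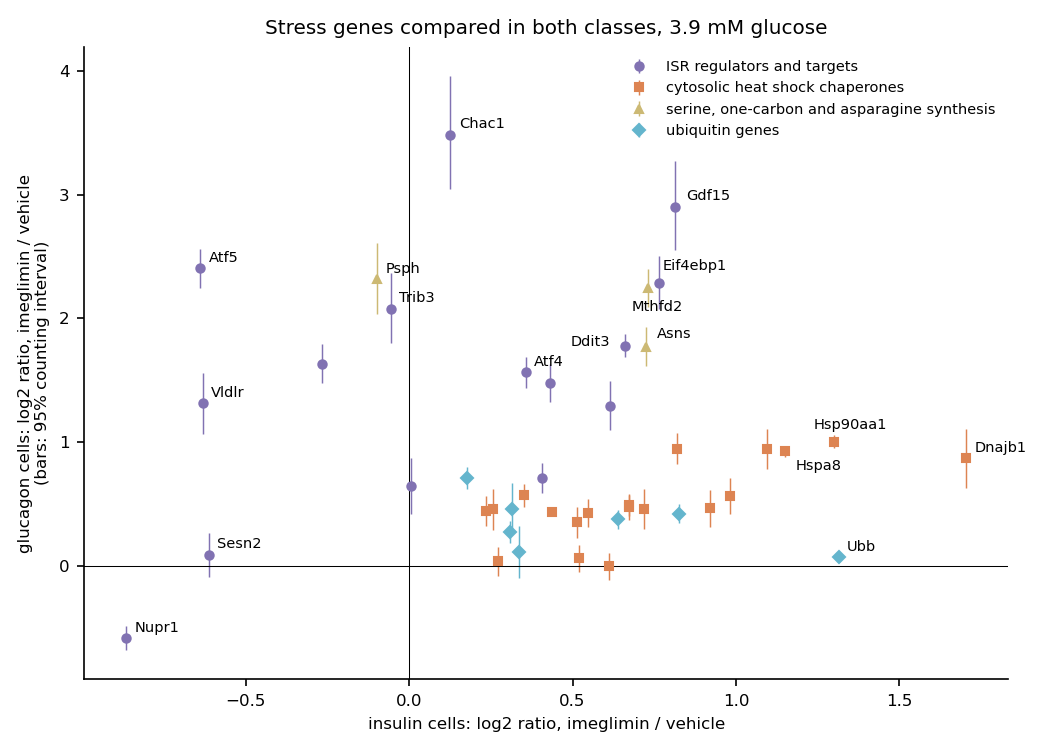
Log2 ratio of imeglimin to vehicle at 3.9 mM in insulin cells (x) against glucagon cells (y, bars are 95% counting intervals) for ISR, serine and asparagine synthesis, heat shock and ubiquitin genes compared in both classes; each point is 1 gene and each class is 1 library a side. Chac1, Gdf15, Atf5, Psph and Trib3 lie above 2 in glucagon cells and below 1 in insulin cells; Ubb lies at 1.31 in insulin cells and 0.07 in glucagon cells.

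The C/EBP-ATF response element, to which ATF4 binds, was searched as TGATGNAA on both strands in the same windows. It was in 3.45% of all windows. Counted by gene, it was in windows of 125 of the 5097 genes compared in insulin cells that had a promoter. Among these, 5 of the 15 ISR genes had it. Among ISR genes compared in glucagon cells, those with a match were Chac1 (3.48), Vldlr (1.31), Herpud1 (0.71) and Nupr1 (-0.58). The windows of Atf5 (2.40), Trib3 (2.08) and Ddit3 (1.78) hold no match, though their ratios were high as well. The window of Chac1, with the highest ratio of the ISR genes in glucagon cells, and that of Asns, a textbook ATF4 target, each hold 1 match, shown in capitals, with no overlap with another motif searched.
Chac1 (chr2:119350992-119351241, + strand): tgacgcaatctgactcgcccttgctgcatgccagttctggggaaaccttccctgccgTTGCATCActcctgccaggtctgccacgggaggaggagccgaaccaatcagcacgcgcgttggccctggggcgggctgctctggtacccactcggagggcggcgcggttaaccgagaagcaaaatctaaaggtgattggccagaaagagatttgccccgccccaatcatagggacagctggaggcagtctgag
Asns (chr6:7693210-7693459, - strand): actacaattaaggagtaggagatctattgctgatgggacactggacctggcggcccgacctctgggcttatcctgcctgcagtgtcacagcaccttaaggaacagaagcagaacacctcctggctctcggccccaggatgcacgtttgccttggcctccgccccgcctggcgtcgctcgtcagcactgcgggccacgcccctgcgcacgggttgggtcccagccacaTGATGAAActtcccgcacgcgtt
Genes that were low in glucagon cells were led by Edn3, the peptide endothelin 3, at 89.9 CPM with vehicle and 7.71 with imeglimin (-3.54, -3.93 to -3.18), and Mrln, an inhibitor of the ER calcium pump, at 75.4 and 7.14 (-3.40). Pdk4, which blocks pyruvate entry into mitochondria, was at 88.0 and 11.9 (-2.89), and Fbp1, of gluconeogenesis, at 72.4 and 13.0 (-2.47). Irx2, a transcription factor of alpha cells, was nearly level at 153 and 157 (0.03). Vgf, a granin-like neuropeptide precursor, was high at 75.8 and 411 (2.44), as it was at lower levels in insulin cells (20.4 and 54.4, 1.42).

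Somatostatin cells (at least 4% of UMIs from Sst, with insulin under 4%) were few, 40 with vehicle and 88 with imeglimin, and their single genes rested on few UMIs. Of 3781 genes with at least 50 CPM, 667 (17.6%) were higher by 1.5-fold or more and 421 (11.1%) lower. Stbd1, a glycogen-binding protein of autophagy that was also high in glucagon cells (9.99 and 53.7 CPM, 2.43), was at 9.85 and 88.9 CPM, from 3 and 56 UMIs (3.17, 1.55 to 5.49). The gene furthest down, Lrg1, had 99 UMIs with vehicle in 2 cells. Of kept cells, insulin cells were 63.1% with vehicle (62.0 to 64.3) and 55.4% with imeglimin (54.4 to 56.5), glucagon cells 8.78% and 12.5%, endothelial cells 2.07% and 3.96% and macrophages 1.90% and 1.21%. Cells that met none of the hormone or marker rules were 9.08% and 10.3%, and cells with more than 1 hormone above its limit or between limits 13.5% and 14.6%. These shares describe the suspension after dispersal, and the hormone rules set them in part, since a cell with less insulin RNA can leave the insulin class.

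Set beside 11.1 mM, where other libraries served both sides, these lists had other medians. At 11.1 mM, 274 (4.35%) of the same 6296 genes were past 1.5-fold on the high side and 263 (4.18%) on the low side. Heat shock genes had a median of 0.08 there with 0 of 24 higher and 2 lower, glycolysis genes -0.04 with 0 of 11 lower, and ion channels -0.22 with 3 of 15 lower. Mature beta cell genes were low at both glucose levels (-0.72 with 12 of 20 lower and 1 higher at 11.1 mM). The ISR list was at 0.54 with 8 of 17 higher at 11.1 mM, against 0.13 with 5 higher and 4 lower at 3.9 mM. Txnip, which blocks thioredoxin and is driven by ChREBP in beta cells, was at 10.9 CPM with vehicle and 34.3 with imeglimin at 3.9 mM (1.65) and at 54.7 and 19.2 at 11.1 mM (-1.51), though at 3.9 mM it was over 10 times higher in another class. At 3.9 mM its level was 10.6 to 11.5 across the vehicle quartiles and 11.7, 16.5, 32.7 and 86.0 across the imeglimin quartiles. The Txnip window is shown because it holds the carbohydrate response element of ChREBP, searched on both strands as CACGNG and CNCGNG with 5 bases between them. Txnip was the 1 gene with a match among 8 of the ChREBP list. The element was in 0.280% of all windows and in 0.659% of those of genes compared. It was in windows of 41 compared genes, most of which were inside 1.5-fold at 3.9 mM. Capitals mark the single match.
Txnip (chr3:96557707-96557956, + strand): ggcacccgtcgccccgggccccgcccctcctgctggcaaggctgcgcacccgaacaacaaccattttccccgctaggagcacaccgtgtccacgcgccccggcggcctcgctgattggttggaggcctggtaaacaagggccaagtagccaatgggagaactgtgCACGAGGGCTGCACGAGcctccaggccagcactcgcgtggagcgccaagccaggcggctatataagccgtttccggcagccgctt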

How the data were processed

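The authors deposited raw UMI counts, whole numbers for each gene in each barcode, as 1 matrix a library; per the submitters' processing notes they were made with Cell Ranger 6.0.2 on mm10. Of 32285 identifiers, 38 symbols occurred more than once, and the identifier with the most UMIs kept the symbol. Cells were kept and gated as given above. No doublet caller was run: hormone limits drop barcodes of mixed hormones, and an alternative left out the top 5% of insulin cells by UMIs. UMIs were summed over cells of a class and scaled by TMM (edgeR 4.0.16, R 4.3.3) over the 2 libraries. With 1 library a group no model was fitted and no p-value computed. Counting intervals are exact and 95% (SciPy 1.17.1, Python 3.11.15). Levels were not compared between genes by length, as 3′ counts do not scale with it. Non-endocrine classes needed UMIs of at least 3 of their markers. Thinning drew 3000 UMIs per cell, which left out shallower cells: 162 vehicle and 892 imeglimin insulin cells.

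Named genes were the 25 genes furthest up and the 25 furthest down among those of 50 CPM or more past 1.5-fold under 4 ways of scaling or averaging, up to 4 members each way of every list, the 10 highest and 10 lowest cell-pair shares, a short set of beta cell and stress genes, and the 8 highest and lowest in glucagon and somatostatin cells. Genes named by quartile of insulin share were chosen after their values were seen, as were list members named beyond these. The comparison, the 61 gene lists (60 with a compared member) and the rules were chosen with earlier results of these data known. In simulated counts, 193 of 200 changed genes came within 0.1 of their log2 ratio, 100 of 100 of those changed 2-fold or more passed 1.5-fold, and 0 of 5679 unchanged genes did. Both sides were drawn from the averaged profile with counting noise only. The simulation held neither variation between libraries nor the higher insulin share. It therefore checks the calculation and cannot show how many of the differences reported here are due to imeglimin. Of 6 motifs searched, promoters came from RefSeq for 5097 of the 6296 genes. Alternatives are in the closing section. Some genes are not reported here.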

Additional observations from a re-analysis of the deposited data

Results flagged for a closer look

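In 7 genes named in insulin cells the imeglimin to vehicle ratio was past 1.5-fold on opposite sides at 3.9 and 11.1 mM glucose, each level with its own vehicle library. With 1 library a side the difference between glucose levels was not tested. Nupr1 had a log2 ratio of -0.87 at 3.9 mM (2054 and 1127 CPM) and 1.82 at 11.1 mM (287 and 1010). Atf5 was at -0.64 (316 and 203) and 0.66 (183 and 288), Sesn2 at -0.61 (67.6 and 44.2) and 0.61 (45 and 68.7), and Vldlr at -0.63 (105 and 68.0) and 0.68 (77.1 and 123). These 4 belong to the ISR list. Cyb5r1, a reductase gene, was at -1.50 (84.8 and 30.0) and 1.39 (17.2 and 45). Igf1r was at -1.03 (314 and 154) and 1.08 (340 and 719). Txnip was the 1 gene of the 7 on the high side at 3.9 mM, at 1.65 (10.9 and 34.3) against -1.51 (54.7 and 19.2).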

How the results depend on the processing

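No paired analysis was possible because each group is 1 library, and for the same reason none could be left out. Of 230 named genes past 1.5-fold, 224 kept their direction under all 10 alternatives and 162 stayed past 1.5-fold; of 11 such lists, 10 and 4 did so under 12. The 846 higher and 737 lower genes became 256 and 1585 under plain CPM. There were 468 higher genes over a total without hormone and mitochondrial genes. At 50 CPM or more, 482 were higher and 338 lower, and at 5 CPM or more 1484 were lower, since other numbers of genes were compared. Lists with a median past 1.5-fold, 7 higher and 4 lower, became 2 and 11 under plain CPM, 11 and 7 at 50 CPM, 3 higher without hormone and mitochondrial genes, and 2 lower at 5 CPM. The ChREBP median, 0.63, was -1.43 at 50 CPM and -0.29 at 5 CPM, with other members compared. Without cells with over 1% of UMIs from markers of another class, Cela1 was at -0.77, Cela3b at -0.99, Ctrb1 at -1.28, Pnlip at -0.70, Prss2 at -1.27 and Try4 at -1.14. From 3000 UMIs up, insulin cells were 64.8% with vehicle and 53.2% with imeglimin, and with imeglimin glucagon cells were 14.4% and endothelial cells 2.93%; at no more than 10% mitochondrial UMIs the imeglimin shares were 53.2% insulin and 13.5% glucagon cells. In glucagon cells the 392 and 217 genes became 185 and 413 under plain CPM and 224 and 104 at 100 CPM; in somatostatin cells 667 and 421 became 266 and 141 at 100 CPM. The share of insulin cells with at least 16% insulin was 52.8% with imeglimin in deeper cells, and 11.6% with vehicle and 39.9% with imeglimin in cells chosen by Iapp. The 1039 genes higher in the top imeglimin quartile were 311 over the matched span. The exclusion of cells with other markers, the matched span, and the deeper-cell and Iapp versions of the insulin share and quartile results were chosen after seeing the data. Where no construction is named, the cause was not tested. Genes near 20 CPM in insulin cells and nearly all single genes in somatostatin cells are limited by depth.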
